A study of Homo sapiens with 4 samples.

Results

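This account covers 8 genes of the complement system in pancreatic cancer cells: the components C1S, C1R, C3 and CFB, the soluble inhibitor SERPING1, and the membrane regulators CD46, CD55 and CD59. The genes were chosen by family, and C1S was among them because its rise with both drugs was one of the largest, so its values in that comparison are a description. All 8 are among the 16834 genes analysed. To compare single drugs with their combination, cells labelled MIA PaCa-2 were used, an established human PDAC line with no engineered change. Control cells received neither drug, and the others 1 µM NBT, 5 µM trametinib or both, each for 12 h. NBT is neobractatin, a plant product from Garcinia bracteata, and trametinib is an inhibitor of the kinases MEK1 and MEK2. Each condition was 1 RNA library on the BGISEQ-500 platform. With 1 library a condition no value has a replicate check, differences include the unmeasured variation between cultures, and every interval below is a 95% interval that covers counting error only.

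Complement is a cascade of plasma proteins that marks targets and can end in a pore through their membrane. C1r and C1s are the paired proteases of the C1 complex that start the classical pathway, C3 is the central component that is split and deposited on surfaces, and factor B (CFB) provides the protease of the alternative pathway. C1 inhibitor (SERPING1) blocks C1r and C1s, while CD46 and CD55 stop C3 convertases on the cell's own surface and CD59 stops the terminal pore. The liver makes most of the plasma proteins, but epithelial and tumor cells can also transcribe them, and the membrane regulators are present on nearly all cells. On GRCh38 (RefSeq gene bounds), C1S lies at chr12:7060718-7071032 on the plus strand and C1R at chr12:7080219-7092445 on the minus strand. CD55 (chr1:207321678-207360966) and CD46 (chr1:207752038-207795516) are both on the plus strand of chromosome 1. CFB lies at chr6:31946095-31952084, C3 at chr19:6677704-6720650, SERPING1 at chr11:57597685-57614848 and CD59 at chr11:33703010-33736479.

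The libraries held from 18776212 to 19614763 estimated reads over genes, and 3 reads corresponded to between 0.153 and 0.160 CPM. DUSP6, a phosphatase gene driven by MAPK signaling, had 329 reads in the control, 521 under NBT, 14 under trametinib and 9 under both drugs. HMOX1, also taken as a check of the drugs, had 121, 4825, 382 and 44631 reads in the same order. Of 5 epithelial markers KRT8 (26811 to 63594 reads), KRT18 (14049 to 41334) and EPCAM (3113 to 3502) were abundant, KRT7 had only 33 to 77 reads and KRT19 was not analysed here. KRT8 and KRT18 were lower in both libraries with trametinib than in those without it. Of the 6 immune markers, PTPRC had 8 to 17 reads, LYZ 30 to 36, and CD14 and AIF1 at most 3. CD68 had 1503 to 2400 reads and CSF1R 30 to 113. Summed reads were 27 to 103 for fibroblast markers, 7 to 36 for hepatocyte markers and 20 to 49 for endothelial markers. MIA PaCa-2 is known for a homozygous deletion that covers CDKN2A and MTAP, yet CDKN2A had 2643 to 3524 reads and MTAP 815 to 1151 in the 4 libraries. The labels' cell line entries also carry a different number for each library, so the line is given here as labelled, and the cause of these reads was not tested.

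Promoter windows of 250 bases before to 50 bases after annotated starts were taken from RefSeq (GRCh38.p14), which matched 5 of the 8 genes with 10 windows, and not C1S, C3 or SERPING1. They are shown for genes that rose in the combination library. They were searched on both strands for 7 motifs: TTCNNNGAA (the STAT site GAS), GAAANNGAA (the IRF element ISRE), GGGANTTTC (NF-kB), TGANTCA (AP-1), TGACG (ATF and CREB half-site), TGACNNNGC (the NRF2 element ARE) and TTGCNNAA (C/EBP). TGACG and TGACNNNGC can overlap, but no matches overlapped in the windows printed. Capitals mark the matches.
C1R, upstream start, chr12:7092396-7092695, minus strand: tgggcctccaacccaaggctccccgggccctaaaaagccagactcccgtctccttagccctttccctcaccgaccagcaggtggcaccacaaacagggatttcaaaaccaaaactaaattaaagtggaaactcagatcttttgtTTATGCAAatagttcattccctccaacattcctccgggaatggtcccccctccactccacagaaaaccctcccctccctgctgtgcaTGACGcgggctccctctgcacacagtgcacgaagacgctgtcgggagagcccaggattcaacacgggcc
C1R, downstream start, chr12:7091844-7092143, minus strand: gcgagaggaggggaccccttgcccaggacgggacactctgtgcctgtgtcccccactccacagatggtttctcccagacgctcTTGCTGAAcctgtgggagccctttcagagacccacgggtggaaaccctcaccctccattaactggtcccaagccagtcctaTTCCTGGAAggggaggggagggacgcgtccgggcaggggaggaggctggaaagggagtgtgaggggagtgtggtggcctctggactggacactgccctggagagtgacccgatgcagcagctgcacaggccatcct
CFB, chr6:31945845-31946144, plus strand: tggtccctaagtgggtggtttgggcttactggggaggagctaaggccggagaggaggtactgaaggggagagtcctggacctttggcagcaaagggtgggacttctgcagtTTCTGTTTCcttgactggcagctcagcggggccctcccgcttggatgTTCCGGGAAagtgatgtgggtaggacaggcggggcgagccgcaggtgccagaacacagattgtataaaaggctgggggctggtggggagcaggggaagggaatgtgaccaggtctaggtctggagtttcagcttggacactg
CD55, chr1:207321428-207321727, plus strand: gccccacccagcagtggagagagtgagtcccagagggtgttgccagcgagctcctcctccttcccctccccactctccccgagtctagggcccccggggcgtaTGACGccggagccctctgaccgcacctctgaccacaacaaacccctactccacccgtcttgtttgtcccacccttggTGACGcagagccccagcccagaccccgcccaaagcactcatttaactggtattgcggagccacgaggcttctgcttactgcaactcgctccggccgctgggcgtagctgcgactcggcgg

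Both C1R windows held a C/EBP match, TTATGCAA (the reverse complement of the searched letters) beginning 106 bases and TTGCTGAA beginning 167 bases before the respective start. The letters TTGCNNAA occurred in 10.5% of all 35116 RefSeq windows. The downstream C1R window also held the GAS match TTCCTGGAA, and the CFB window held TTCCGGGAA 92 bases before its start. GAS letters occurred in 7.66% of all windows. Of the 4 CD59 windows 2 held them, at the same site since these windows overlap, and another held C/EBP letters. CFB further held TTCTGTTTC, a reverse-strand ISRE match found in 8.11% of windows. CD55 had TGACG at 147 and 70 bases before its start, and the upstream C1R window had 1 such match, against 24.6% of all windows. TGACG was also present in both windows of CD46, which overlap and share the site. The change of CD46 stayed under 2-fold in every comparison. TGACNNNGC and GGGANTTTC, found in 13.3% and 1.28% of all windows, had no match in the 10 windows, and TGANTCA (7.71%) matched 1 of the 4 CD59 windows. These are matches of letters and say nothing of binding.

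**Figure D1:**
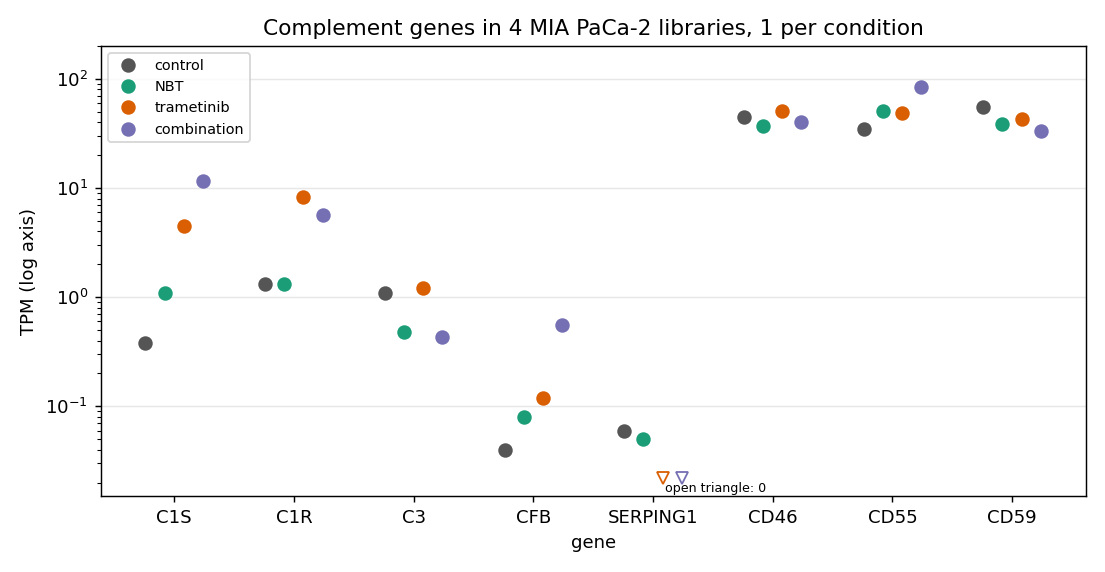
TPM (log axis) of the 8 complement genes in the control, NBT, trametinib and combination libraries, 1 point per library; open triangles mark values of 0. C1S climbs from 0.38 to 11.6 TPM, C1R is high in both libraries with trametinib, and the 3 membrane regulators stay between 33.5 and 84.5 TPM.

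To see how many of the genes differed between libraries, reads were compared between pairs of libraries, and a gene was called where an exact binomial test of the counts passed a false discovery rate of 0.05 and the log2 fold change was at least 1 in size. Such a call compares libraries and not conditions. In the combination library 4 of the 8 genes were called higher than the control (C1S, C1R, CFB and CD55) and 1 lower (C3), where 4.89% of 16229 genes tested were called higher and 3.83% lower. Because the rise of C1S with both drugs chose the set, nothing is read from this share. In the trametinib library C1S and C1R were called higher and no member lower, against 3.86% higher and 2.28% lower of 16197 genes. In the NBT library C1S was called higher and C3 lower, against 1.63% higher and 1.13% lower of 15888 genes. Over the 8 genes the log2 fold changes had medians of 0.02 (NBT), 0.36 (trametinib) and 0.63 (both drugs), beside -0.01, 0.08 and 0.05 over all genes tested. SERPING1 is in these medians with at most 1 read, as is CFB with at most 3 reads except in the combination.

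Set against each single drug, the combination library showed C1S and CFB called higher and C3 lower than with trametinib, where 2.64% of 16343 genes were called higher and 3.73% lower. Against NBT, C1S, C1R and CFB were called higher and no member lower, where 2.38% of 16250 genes were higher and 2.16% lower. The 5 comparisons share libraries and are not independent. Assuming cultures to vary with a coefficient of 0.2 in a negative binomial test, the calls kept were C1S and C1R with trametinib, C1S, C1R and CD55 with both drugs, and C1S and C1R for both drugs against NBT. The calls of C1S and C3 with NBT, of C3 and CFB with both drugs, of CFB for both drugs against NBT, and all 3 calls of the combination against trametinib ended at that assumed spread.

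C1S (NCBI Gene 716) had 10 reads in the control library, 31 under NBT, 119 under trametinib and 321 with the combination. The corresponding levels were 0.38, 1.09, 4.49 and 11.6 TPM. Each treated library thus lay above the control and the combination lay above all others. The log2 fold change against the control was 1.54 under NBT (interval from 0.52 to 2.78), 3.50 under trametinib (2.63 to 4.66) and 4.87 under the combination (4.04 to 6.02), the last being a 30.7-fold difference. Adding NBT to trametinib gave 2.61-fold more C1S reads (2.11 to 3.24), and adding trametinib to NBT gave 10.3-fold more (7.09 to 15.4). C1S ranked 5 among the 428 genes called higher with both drugs that had at least 100 reads, and 7 of 268 with trametinib. Its expression remained modest, since 52.5% of the genes had a lower TPM in the combination library and 24.6% in the control.

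C1R (NCBI Gene 715), the partner protease that cleaves C1s, had 31 reads in the control, 34 under NBT, 200 under trametinib and 142 under the combination, or 1.32, 1.33, 8.28 and 5.63 TPM. The 2 libraries with trametinib were high and the 2 without it low. The log2 fold change was 2.66 with trametinib (2.13 to 3.27), 2.11 with the combination (1.56 to 2.74) and 0.08 with NBT (-0.66 to 0.83). Between the combination and trametinib alone the value was -0.54 (-0.86 to -0.23), outside counting error but not past the limit, in the opposite direction to C1S.

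The balance of the paired proteases is given as a description, since the rise of C1S with both drugs chose the set. There were 0.323 C1S reads for each C1R read in the control (0.141 to 0.675), 0.912 under NBT (0.542 to 1.53), 0.595 under trametinib (0.470 to 0.750) and 2.26 with the combination (1.85 to 2.77). On the TPM scale, which corrects for length, the ratios were 0.288, 0.820, 0.542 and 2.07. Of the 4 libraries only the combination had more C1S than C1R. The intervals of the control, NBT and trametinib libraries overlapped one another.

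**Figure D2:**
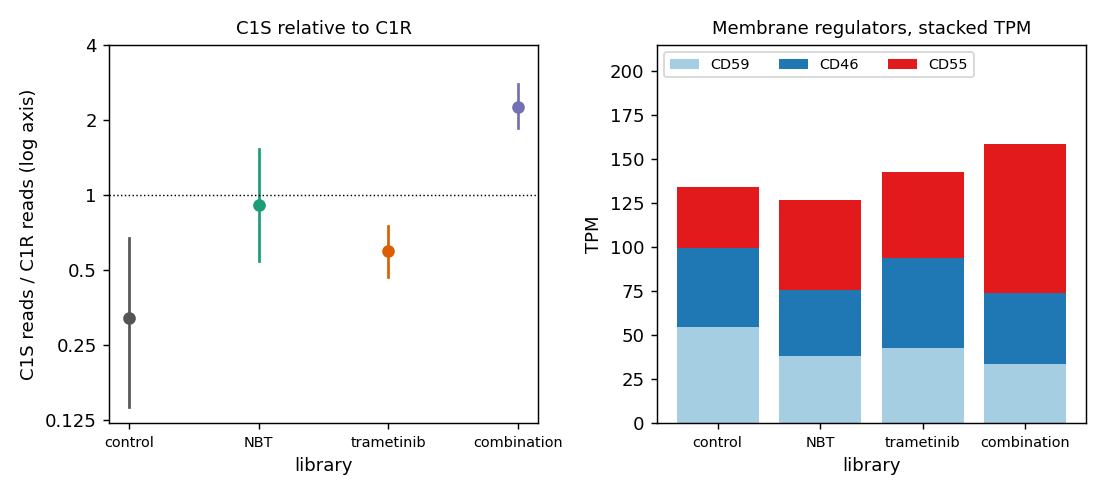
Left, reads of C1S divided by reads of C1R in each library (log axis) with 95% counting intervals; right, stacked TPM of the membrane regulators CD59, CD46 and CD55. The C1S ratio goes from 0.323 in the control to 2.26 with both drugs, and CD55 grows from 34.8 to 84.5 TPM while CD59 shrinks from 54.6 to 33.5 TPM.

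The estimated reads of C1S were also placed on different transcripts. All 10 reads of the control and 99.9% of those with NBT were assigned to XM_005253760.2, which had 0 reads in the libraries with trametinib. There the reads were divided between NM_001734.5 (47.5% with trametinib and 62.6% with both drugs) and NM_201442.4 (52.5% and 37.4%). The division of reads between transcripts is a model estimate, and the 10 and 31 reads behind the first pair of libraries are few. C1R reads lay on 1 transcript, NM_001733.7.

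Genes around the C1S and C1R pair were examined after the values above had been seen. C1RL, which encodes a C1r-like protease and lies at chr12:7094554-7109214 next to C1R, had 564 reads in the control, 665 under NBT, 1109 under trametinib and 874 under both drugs. Its log2 fold change was 0.96 with trametinib, just under the limit of 1, and 0.57 with the combination, so that like C1R it was highest with trametinib alone. The 7 other genes within 100 kb that had at least 30 reads in 1 library (PTPN6, PHB2, EMG1, LPCAT3, RBP5, CLSTN3 and PEX5) had log2 fold changes between -0.13 and 0.43 under trametinib and between -0.30 and 0.46 under the combination. None of these 7 was called in any comparison.

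C3 (NCBI Gene 718) had 55 reads in the control, 26 under NBT, 62 under trametinib and 23 under the combination, or 1.10, 0.48, 1.21 and 0.43 TPM. The 2 libraries with NBT were low and the 2 without it high, a grouping by NBT where that of C1R was by trametinib. The log2 fold change was -1.12 under NBT (-1.86 to -0.43), 0.16 under trametinib (-0.39 to 0.71) and -1.30 with the combination (-2.09 to -0.59). Against trametinib alone the combination value was -1.46 (-2.24 to -0.77), and against NBT alone it was -0.19 (-1.07 to 0.68). C3 was thus called lower in each comparison that adds NBT, although all of its counts are small.

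CFB (NCBI Gene 629) was close to the limit of detection, with 1 read in the control, 2 under NBT, 3 under trametinib and 14 under both drugs, or 0.04, 0.08, 0.12 and 0.56 TPM. The combination library held more reads than the others together. The ratio to the control was 13.4, with an interval from 2.04 to 567, and the ratios to trametinib alone and NBT alone were 4.51 (1.26 to 24.5) and 6.94 (1.59 to 62.9). No fold is given between the other libraries, which had at most 3 reads.

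SERPING1 (NCBI Gene 710) had 1 read in the control, 1 with NBT and 0 in both libraries with trametinib. A count of 0 allows up to 3 reads, or 0.158 CPM with trametinib and 0.153 CPM with the combination. A difference was not detectable at this depth. C1S and C1R thus rose in libraries where their inhibitor's RNA was at or near 0 throughout.

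The membrane regulators were far more abundant than the components. In the control library CD59 stood at 54.6 TPM, CD46 at 44.9 TPM and CD55 at 34.8 TPM, whereas the 5 soluble members, SERPING1 included, together made 2.90 TPM. The order was CD55, CD59, CD46 with NBT, CD46, CD55, CD59 with trametinib, and CD55, CD46, CD59 with both drugs. CD59 and CD46 were close with NBT (38.5 and 37.2 TPM), as were CD46 and CD55 with trametinib (50.8 and 48.7 TPM), and no spread over cultures is available to separate them. The summed TPM of the 3 genes was 134, 127, 142 and 159 in the same order of libraries as above, and that of the 5 soluble members was 2.90, 3.03, 14.1 and 18.3.

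CD55 (NCBI Gene 1604), which encodes decay-accelerating factor, had 588 reads in the control, 961 under NBT, 839 under trametinib and 1582 under the combination. All 3 treated libraries exceeded the control and the combination was highest. The log2 fold change was 0.66 under NBT (0.51 to 0.81), 0.50 under trametinib (0.35 to 0.65) and 1.36 with the combination (a 2.58-fold difference, from 2.34 to 2.84), and only the last passed the limit of 1. Its share of the TPM of the 3 membrane regulators was 25.9% in the control, 40.2% under NBT, 34.2% under trametinib and 53.3% with both drugs. For each CD59 read there were 0.148 CD55 reads in the control and 0.606 with both drugs, with intervals of 0.136 to 0.161 and 0.569 to 0.645. The transcripts NM_000574.5 and XM_017000467.2, carried 47.1% and 46.5% of the reads in the control and 50.1% and 40.8% with both drugs.

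CD59 (NCBI Gene 966) had 3972 reads in the control, 3032 under NBT, 3210 under trametinib and 2611 under the combination. All 3 treated libraries lay below the control, the reverse of CD55. The log2 fold changes were -0.44 (-0.51 to -0.37), -0.32 (-0.39 to -0.25) and -0.67 (-0.74 to -0.60), outside counting error and short of the limit in each case. Its main transcript, NM_000611.6, kept from 75.6% to 82.2% of the reads.

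CD46 (NCBI Gene 4179), the cofactor for cleavage of C3b, had 1388 reads in the control, 1250 under NBT, 1623 under trametinib and 1347 under the combination. Its log2 fold changes were the smallest of the 3 membrane regulators, at -0.20 (-0.31 to -0.09), 0.21 (0.11 to 0.32) and -0.11 (-0.22 to 0.00). Of its 11 transcripts, NM_153826.4 held 65.3% of the reads in the control, 59.7% under NBT, 46.9% under trametinib and 60.8% with both drugs. NM_172351.3 moved the other way, with 18.2%, 27.0%, 30.8% and 22.9%, and these shares too are model estimates.

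**Figure D3:**
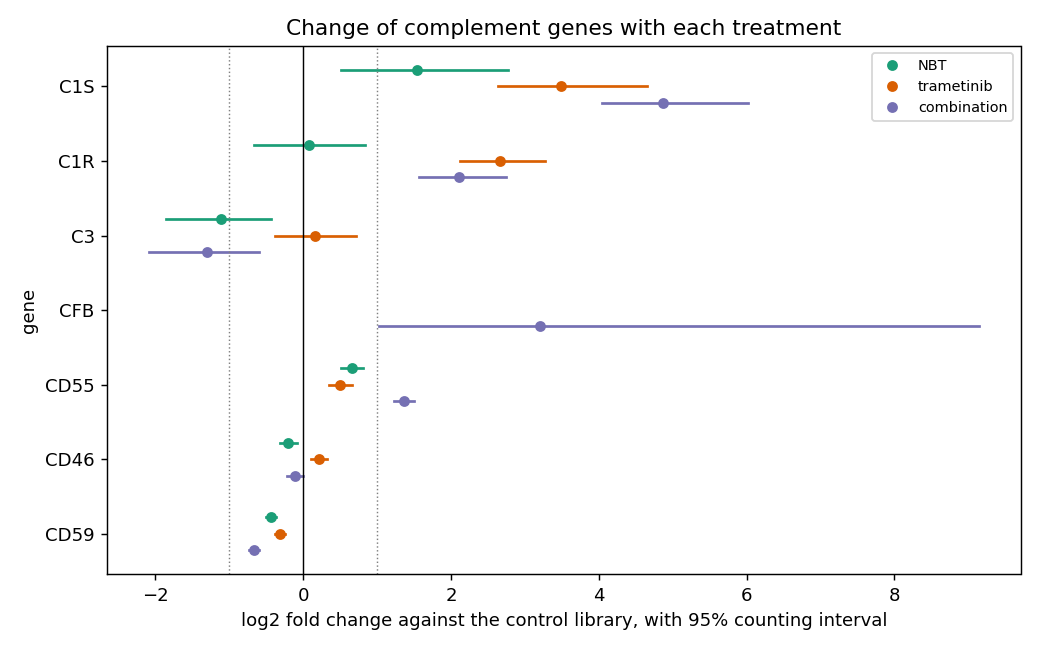
Log2 fold change against the control library for 7 complement genes with NBT, trametinib and both drugs; bars are 95% counting intervals, dotted lines mark the limit of 1, and values resting on at most 3 reads in both libraries are left out. C1S lies at 1.54, 3.50 and 4.87, C3 is below 0 with NBT and with both drugs, and CD55 and CD59 lie on opposite sides of 0.

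To ask whether both drugs together gave more than the single drugs, the log2 fold change of the combination was set against the sum of the single-drug values. For C1S the sum was 5.03 and the combination value 4.87, a departure of -0.16 (-1.21 to 0.90). The rise of C1S with both drugs chose the set, so its departure is a description. The departures of C1R (-0.62, from -1.39 to 0.14), C3 (-0.34, from -1.30 to 0.61), CD46 (-0.12, from -0.27 to 0.03) and CD59 (0.09, from -0.01 to 0.19) also had intervals that included 0. CD55 exceeded its sum by 0.21 (0.02 to 0.40). Of the 6 members with enough reads, CD55 alone departed by more than counting error, and none by 1 or more. Across 11367 genes with at least 50 reads in 1 library the departures at percentiles 5 and 95 were -0.61 and 0.47, a range that holds the values of all these members except C1R, which lay at its lower edge. The intervals of C1S, C1R and C3 are wide and reach below -1, so a departure of -1 lay within counting error of their values at this depth.

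**Figure D4:**
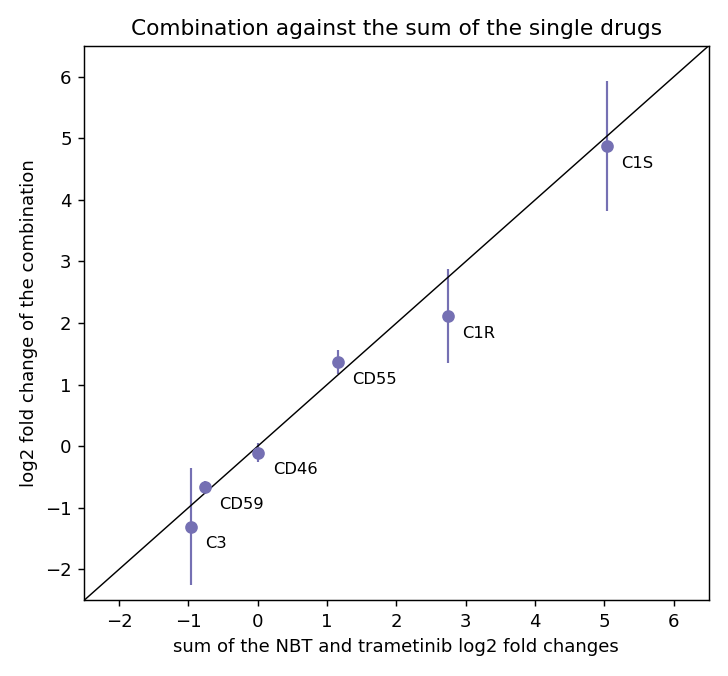
Log2 fold change of the combination (vertical) against the sum of the NBT and trametinib log2 fold changes (horizontal) for 6 complement genes; bars are 95% counting intervals of the departure and the line marks equality. C1S (4.87 against 5.03) lies on the line within its interval, C1R (2.11 against 2.74) lies below it and CD55 (1.36 against 1.16) lies above it. The point of C1S is a description, since its rise with both drugs chose the set.

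A list of 52 other complement genes was examined for the rest of the cascade, of which 37 could be analysed here. C4A and C4B are near-identical and share reads, so their separate calls follow how reads were divided between them, and they are described as a sum further on. In the NBT library 4 of 36 tested were called lower (C7, CR1 and the C4 pair) and none higher, where 1.13% of all genes were lower and 1.63% higher. In the trametinib library C5AR1 and C4A were called higher and C4B lower of 35 tested, where 3.86% of all genes were higher and 2.28% lower, and the C4A call was lost on the TPM scale and with 5 added reads. With both drugs CLU, C5AR1, ITGAM, ITGAX and C4A were higher and ITGB2 and C4B lower of 35, where 4.89% of all genes were higher and 3.83% lower. The list's median log2 fold changes were -0.05, 0.16 and -0.04, beside -0.01, 0.08 and 0.05 over all genes. Between the combination and trametinib CFD was called lower and none higher of 34, where 3.73% of all genes were lower and 2.64% higher. Against NBT C4A and C5AR1 were higher and ITGB2 and SUSD4 lower of 36, where 2.38% of all genes were higher and 2.16% lower. Only 12 of the genes had at least 30 reads in any library, so many of these calls rest on few reads.

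Among the fluid-phase regulators CLU, which encodes clusterin, an inhibitor of the terminal complex and a chaperone, had 3541 reads in the control, 4588 under NBT, 4802 under trametinib and 8751 under both drugs. Its log2 fold change was 0.32 under NBT, 0.43 under trametinib and 1.24 with the combination, 0.49 above the sum (0.41 to 0.57). CLU and CD55, both inhibitors of complement, shared the order of the libraries at the extremes, lowest in the control and highest with both drugs. In the negative binomial test at a spread of 0.2, the combination call of CD55 was kept and that of CLU was lost. C4BPB, a chain of the C4b-binding protein, had 29, 46, 42 and 31 reads and was not called.

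Among the receptors, C5AR1 for the fragment C5a had 13 reads in the control, 11 under NBT, 56 under trametinib and 59 under both drugs, a 4.27-fold difference with trametinib (2.31 to 8.51) and a log2 fold change of 2.08 with the combination (1.24 to 3.11). Like C1R it was high in the libraries with trametinib only. The second C5a receptor, C5AR2, had 157, 158, 177 and 132 reads. ITGB2, the beta chain of complement receptor 3, fell to 60 reads with both drugs from 183 in the control, with 156 with NBT and 101 with trametinib. ITGAM, its alpha chain, had 1 to 9 reads. The immune marker CSF1R also rose with both drugs (34 to 113 reads) while PTPRC had 8 and 15 reads, and the part of such cells in these values was not tested.

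C4A and C4B, which encode near-identical forms of C4, the substrate of C1s, cannot be told apart from these reads and were summed. They had 30 reads in the control, 0 under NBT, 34 under trametinib and 55 under both drugs. With NBT they were 10.4-fold lower if the count of 0 is taken as 3 reads, and the interval of the log2 fold change ended at -2.98. The log2 fold change of the sum was 0.16 with trametinib (-0.58 to 0.93) and 0.80 with both drugs (lower bound 0.14), neither past the limit of 1. C1QBP, a multifunctional C1q-binding protein, and CALR, a chaperone that also binds C1q, were abundant, with 7202 to 9596 and 11508 to 16028 reads, and neither was called. FCN1 (58 to 66 reads), COLEC12 (44 to 54) and CFD (12 to 31), for a ficolin, a collectin and factor D, were not called against the control either.

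**Figure D5:**
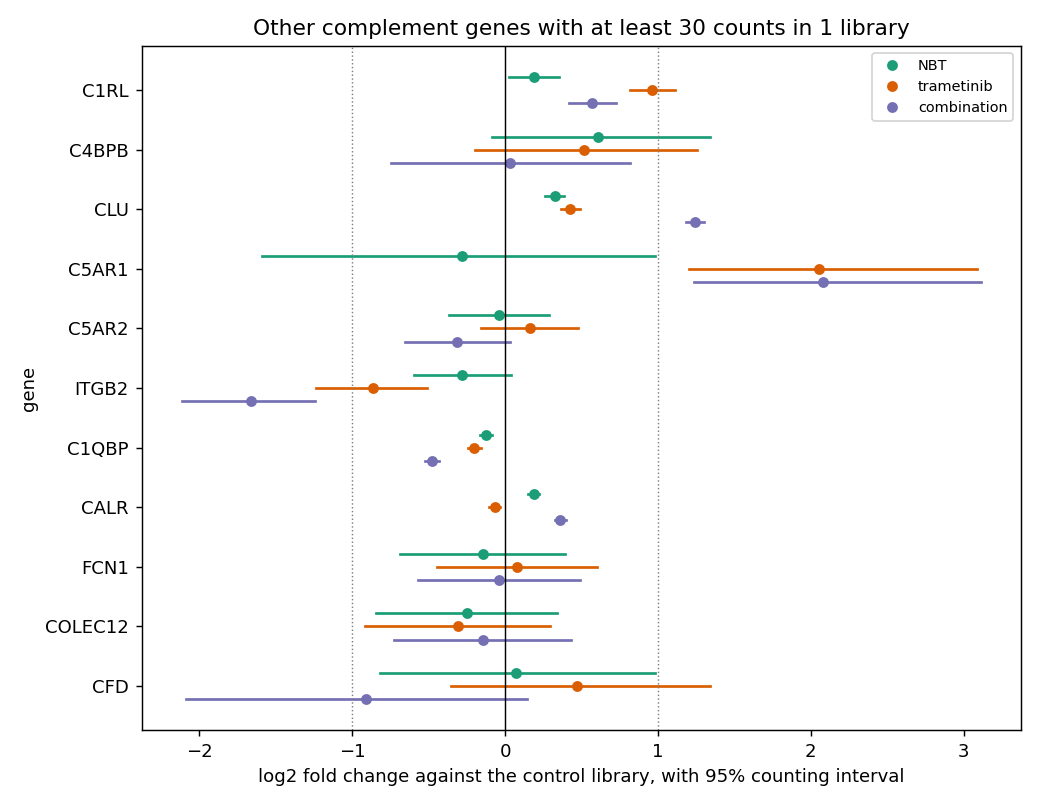
Log2 fold change against the control library, with 95% counting intervals, for 11 other complement genes with at least 30 reads in 1 library (C4A is left out because C4A and C4B share reads); dotted lines mark the limit of 1. CLU (1.24) passes the limit with both drugs, C5AR1 (2.05 and 2.08) with trametinib and with both drugs, and ITGB2 falls past it with both drugs.

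Genes of the cytokine pathways known to control complement transcription were examined as a list of 23, of which 22 had a read in the single-drug comparisons. With NBT 1 was called higher (CEBPB) and 1 lower (IL6), with trametinib 2 higher (IRF9 and CEBPD) and 2 lower (LIF and SOCS3), and with both drugs 2 higher (IL6R and CEBPB) and 1 lower (IL1B). The shares of all genes called were 1.63% higher and 1.13% lower with NBT, 3.86% and 2.28% with trametinib, and 4.89% and 3.83% with both drugs, and whether the list differs from them was not tested. The median log2 fold changes were 0.05, 0.26 and 0.26, beside -0.01, 0.08 and 0.05 over all genes. CEBPB, a factor of acute-phase genes, had 1704 reads in the control, 4706 under NBT, 1526 under trametinib and 5745 under both drugs. Its relative CEBPD had 794, 621, 2581 and 1384 reads in that order, and IRF9, a subunit of the interferon-activated complex ISGF3, had 170, 228, 514 and 352. CEBPD and IRF9 were both highest with trametinib alone and second with the combination, as C1R was.

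The cytokine genes moved otherwise. IL6 had 130, 50, 129 and 114 reads, and IL1B had 282, 151, 166 and 13, so that IL1B was lowest with both drugs, where C1S was highest. LIF fell to 175 reads with trametinib from 756 in the control and stood at 485 with both drugs, and the feedback inhibitor SOCS3 had 383, 574, 190 and 438. IL6R rose from 452 reads to 1401 with both drugs, with 560 and 879 with the single drugs.

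Finally, the genes whose 3 log2 fold changes lay nearest to those of C1S were sought among 10662 genes with at least 100 reads in 1 library. The 5 nearest by Euclidean distance over the 3 treated libraries were ZSCAN31 (1.27), HSPB8 (1.44), MAP2 (1.70), KIAA0319 (1.88) and GABARAPL1 (2.30). ZSCAN31 had 39, 64, 571 and 669 reads and HSPB8, a small heat shock protein gene, 153, 339, 875 and 2445. No gene came within a distance of 1, and none of the other complement genes was among the 5. Many complement genes could not appear because they had fewer than 100 reads in every library. C3 (at most 62 reads), CFB (at most 14) and C5AR1 (at most 59) were among these. These distances are a description, since the rise of C1S with both drugs chose the set. All 3 fold changes of C1S also rest on its 10 control reads. Their counting intervals are wide (4.04 to 6.02 with both drugs), so distances of this size are not resolved.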

How the data were processed

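RNA of cells labelled MIA PaCa-2 was sequenced in 4 conditions, 1 library each. The authors deposited estimated counts and TPM per gene and per RefSeq transcript, and the submitters' processing notes name Bowtie2 2.2.5, RSEM 1.2.8 and hg38 without their roles. FPKM columns were not used. The labels describe depletion of 23S and 16S rRNA. The members and gene lists were chosen with earlier results of these data known.

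Estimated counts (not whole for 53.9% of genes) were rounded and scaled to library sums, and log2 fold changes used 0.5 added reads. Genes counted at least once in a pair of libraries were tested by a two-sided exact binomial test, and calls needed a Benjamini-Hochberg adjusted value of at most 0.05 and a log2 ratio of 1 or more in size, after the study's Poisson method. No p-value is given, because 1 library per condition leaves no replicate. Ratio intervals are 95% Clopper-Pearson intervals, and departures used Poisson variances. Since PCR reads are not independent molecules, intervals and floors cover counting error only. In simulated libraries 193 of 200 genes changed 4-fold were called for NBT against the control (15568 genes tested, 2 false calls), 197 for trametinib against the control (15830, 1 false call), 199 for both drugs against the control (15864, 0 false calls), 197 for both against trametinib (15987, 2 false calls) and 195 for both against NBT (15875, 0 false calls). The simulated counts had Poisson spread only, as the test assumes, and genes with few expected reads were not among those changed. The few false calls therefore say nothing of variation between cultures or of genes with few reads.

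Named genes were the 8 members, other complement genes with at least 30 counts in 1 library, transcripts with at least 10% of their gene's count, upstream genes called against the control, the 5 genes nearest to C1S, and checks of drugs and cell line. CR1, C7, C4B, SUSD4, ITGAM, ITGAX, MTAP and the 7 flanking genes were named outside or beside this rule after their values were seen. Alternatives were edgeR 4.0.16 TMM factors, DESeq2 1.42.0 size factors, the authors' TPM with a pseudocount of 0.1, 5 added reads, summed transcript counts, a minimum of 10 counts, and edgeR's negative binomial test at assumed coefficients of variation. R 4.3.3, Python 3.11.15, scipy 1.17.1 and statsmodels 0.14.6 were used.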

Additional observations from a re-analysis of the deposited data

Results flagged for a closer look

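The 8 members and 37 other complement genes were scanned for each drug, with intervals not adjusted for that number. In 3 of these genes a drug moved the reads one way alone and the other way in the presence of the second drug. Each effect lay beyond counting error, and with 1 library per condition the difference was not tested. C1RL was higher with NBT than in the control (log2 fold change 0.19, from 0.02 to 0.35) and lower with NBT added to trametinib (-0.39, from -0.52 to -0.26), a difference of -0.58. CALR was lower with trametinib (-0.07, from -0.10 to -0.03) and higher with trametinib added to NBT (0.17, from 0.14 to 0.21), a difference of 0.24. C4A had 15 reads in the control and 0 with NBT but 34 with trametinib and 55 with both drugs. Its value for NBT added to trametinib was 0.64 (0.001 to 1.31), barely outside counting error. The fitted difference of 5.64 depends on the reads added to the 0 and on how reads shared with C4B were divided.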

How the results depend on the processing

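All 165 recomputed log2 fold changes of single members and all 18 recomputed departures from additivity kept their direction or stayed within their interval, and their side of the limits, under the TMM, median-of-ratios and TPM scalings, 5 added reads and summed transcript counts (departures: TMM, TPM and 5 added reads). Of 64 recomputed counts of called genes, 51 stayed within 1.5 times of the value reported. The 13 that did not were those of the negative binomial test, which allows for more spread by construction. At an assumed coefficient of variation of 0.2 0 members were called with NBT (2 before), 3 with both drugs (5 before) and 0 for both drugs against trametinib (3 before), and of the other complement genes 0 with NBT (4 before) and 3 with both drugs (7 before). At 0.4 only C1S with both drugs was left, so that 1 member was called there and 0 in each of the other 4 comparisons, and 0 other complement genes in each of the 3 comparisons with the control. Because the rise of C1S with both drugs chose the set, nothing is read from that call being kept at 0.2 or 0.4. The spread between cultures was not measured. Values resting on under about 30 reads (CFB, C4A and C4B, and C1S and C3 in some libraries) are limited by depth. No paired analysis was possible because each condition has 1 library.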
